A study of Homo sapiens with 12 samples.

Results

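HMEC-1 cells, an immortalised line of human dermal microvascular endothelium, were transfected with a mimic of the microRNA miR-126 and compared with cells given a scrambled RNA that was labelled non-targeting. The comparison covers 6 of the 12 libraries of the series, namely the mimic columns numbered 2, 3 and 4 and the scrambled columns with the same numbers, chosen by those column names. Both groups received 50 nM of RNA by lipid transfection (Lipofectamine RNAiMAX) in endothelial growth medium, and total RNA was taken after 48 h. The other 6 libraries came from the same line given miR-143 or miR-150 mimics at the same dose and time, 3 each, and served as a further reference. The labels do not say which strand the mimic supplies, what the scrambled sequence is, or whether the numbered replicates were separate cultures, and p-values therefore reflect only how far these libraries differ from each other, possibly for technical reasons. Everything was measured in 1 cell line. The question, as far as the series title states it, was what these microRNAs do in abnormal growth of retinal vessels.

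A microRNA guides Argonaute proteins to messenger RNAs whose 3′ untranslated region (UTR) pairs with its seed, the bases near its 5′ end, and such transcripts are then repressed and often degraded. miR-126 is the microRNA best known from endothelium. It is encoded in an intron of EGFL7, which itself codes for a secreted endothelial protein, and it is known to favour responses to VEGF by repressing SPRED1 and PIK3R2, inhibitors of the ERK and PI3K pathways. Its hairpin yields 2 mature strands with unrelated seeds.

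Both strands are shown because each seed defines a different set of carriers, with bases 2 to 8, the seed, in capitals (RefSeq, GRCh38.p14).
hsa-miR-126-3p chr9:136670653-136670674 (+): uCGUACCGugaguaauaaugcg
hsa-miR-126-5p chr9:136670616-136670636 (+): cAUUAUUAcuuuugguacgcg
In DNA letters the 7-mer that pairs with bases 2 to 8 is CGGTACG for miR-126-3p and TAATAAT for miR-126-5p. A weaker match pairs with bases 2 to 7 and is followed by an A, which reads GGTACGA for miR-126-3p. The windows below come from the 3′ UTRs of some of the carriers described further on (GENCODE 29, GRCh38, printed along the mRNA), with the match in capitals. All of these genes lay lower with the mimic. The seed results are means over all carriers, and others, such as CENPP, whose exons overlap IPPK and NOL8, lay higher.
PMM1 chr22:41576994-41577022 (-): gcgtgctcaagtatCGGTACGagatctag
PIK3R2 chr19:18170479-18170507 (+): aggcaggttttgtaCGGTACGttgttatt
PTPN9 chr15:75467712-75467740 (-): gagccaaatgcaatCGGTACGaatcttag
GOLPH3 chr5:32126032-32126060 (-): tacaggattctgctGGTACGAgaggcctt
EGFL7 chr9:136672547-136672575 (+): ctcagctgagggaaGGTACGAgctccctg
SLC7A5 chr16:87832792-87832820 (-): gctgtgaaaactctGGTACGAatctcatc
CRK chr17:1423321-1423349 (-): attaccatattcagGGTACGAactggagg
SPRED1 chr15:38352175-38352203 (+): ttaactaaatgtaaGGTACGAattattac
PMM1, PIK3R2 and PTPN9 hold the full 7-mer and the other 5 hold the weaker match.

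Values are TPM, the share of a library's transcripts that a transcript makes up after correction for its length, scaled to the same total in each library, so the depth of a library is unknown. TPM were summed per gene symbol, and 13750 genes reached 1 TPM in at least 3 libraries. Between 12901 and 13564 genes reached 1 TPM in the 6 libraries. The replicate 4 libraries of the miR-143 and miR-150 mimics stood apart, with lower values for long transcripts (Spearman correlation of deviation with transcript length -0.369 and -0.503, against -0.018 to 0.269 in the other 10). Both enter the estimate of spread, and counts are therefore also given without them. The replicate 3 libraries of every group stood apart in genes induced by interferon, described further on. All 9 endothelial markers, among them PECAM1, CDH5, KDR and ERG, were tested, and their summed level was 1523, 1037 and 1561 TPM with the mimic (replicates 2, 3 and 4) against 1623, 1266 and 1936 TPM with scrambled RNA. In bulk RNA, fewer cells of a type and less RNA per cell cannot be told apart. Of 4 epithelial markers KRT5 was at 0 in all 6 libraries and the sum did not exceed 1.99 TPM. The 6 leukocyte markers summed to between 2.59 and 4.40 TPM. For fibroblast and pericyte markers the summed level was 67.8, 51.2 and 71.0 TPM with the mimic against 113, 49.3 and 129 TPM with scrambled RNA. The mature microRNA was not measured, since the table held 0 transcripts of the MIR126 gene.

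In all, 464 genes were higher and 238 lower with the miR-126 mimic than with scrambled RNA, 3.37% and 1.73% of those tested (limma, log2(TPM + 1), Benjamini-Hochberg adjusted p under 0.05). Differences of 1 or more on the log2 scale were found for 147 and 91 of them. Residuals of same-numbered libraries correlated, most for number 3. A fit that blocks on the replicate number called 1629 and 702 (11.8% and 5.11%). Every gene called without the block was also called with it. Leaving out the 2 libraries that disfavour long transcripts gave 1211 and 624 (8.81% and 4.54%), and leaving out the 4 libraries numbered 3 gave 236 and 133, 2.68% of genes in all. The median gene lay 0.10 higher on the log2 scale with the mimic. With each library centred on its median gene, 354 genes were higher and 547 lower, and the median gene lay at -0.04, so the excess of higher genes depended on the scaling. Leaving out single libraries reduced the counts to between 129 (without scrambled replicate 4) and 305 higher and to between 85 (also without scrambled replicate 4) and 167 lower.

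**Figure D1:**
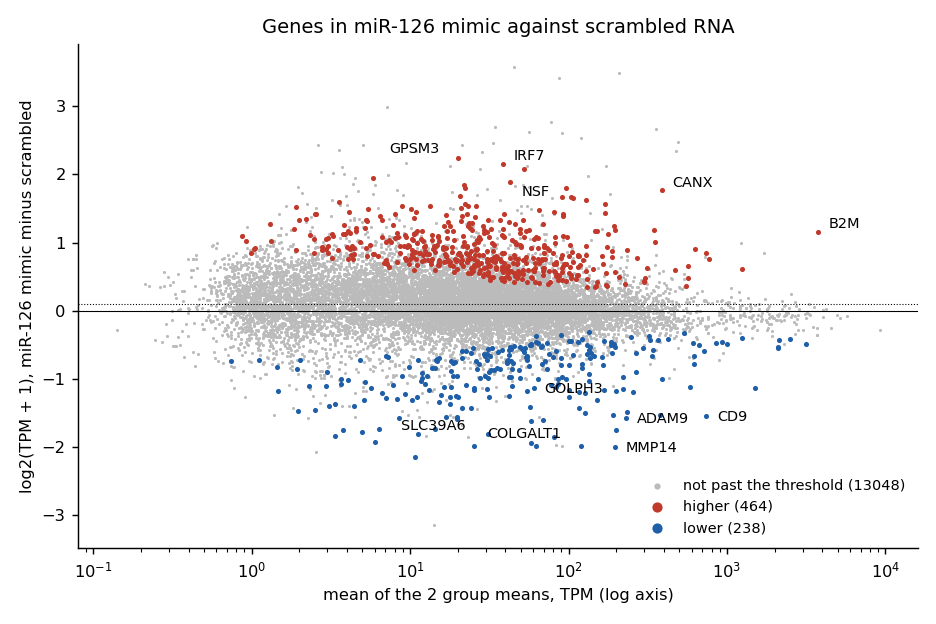
Each point is 1 of the 13750 tested genes, with the mean of the 2 group means in TPM on the log-scaled x axis and the difference in log2(TPM + 1) between the 3 miR-126 mimic and 3 scrambled libraries on the y axis. Red marks the 464 higher and blue the 238 lower genes (adjusted p under 0.05), the dotted line is the median gene, and the grey points above 2.3 show large differences that did not pass because the libraries of a group differed.

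The mean level of genes with a 3′ UTR match to miR-126-3p, though not of each such gene, was lower in every mimic library than in every scrambled library. The 7-mer was found in 37 of 12489 tested genes with an annotated UTR (0.296%). Relative to genes without a match, their mean level was -0.130, -0.074 and -0.165 in mimic replicates 2, 3 and 4 and 0.083, 0.197 and 0.089 in the scrambled ones (log2, each gene centred over the 6 libraries). The difference of -0.25 had an exact permutation p of 0.1, the smallest that 3 against 3 libraries allow (two-sided). Set against all 9 other libraries, the difference was -0.19 (exact permutation p = 0.0045, the smallest of 220 splits). The 166 genes with the 7-mer or the weaker match differed by -0.25 (exact permutation p = 0.1) and by -0.18 against the 9 (exact permutation p = 0.0091). The splits against the 9 treat all libraries as exchangeable. Those 9 come from different treatments, and same-numbered libraries correlated, so these p values are only a rough guide. Both sets count the near-identical copies F8A1 (-1.05) and F8A3 (-1.27) as separate genes, and no value without them was computed.

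For the other strand no such separation was seen. The 7-mer of miR-126-5p was in 2484 genes, 19.9% of those with a UTR, and their difference was -0.041 (exact permutation p = 0.3, two-sided). With UTR length and base composition removed it was 0.0027, and against all 9 other libraries 0.034. An interval for the 5p difference was not computed, and the p does not show that the strand was without effect.

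**Figure D2:**
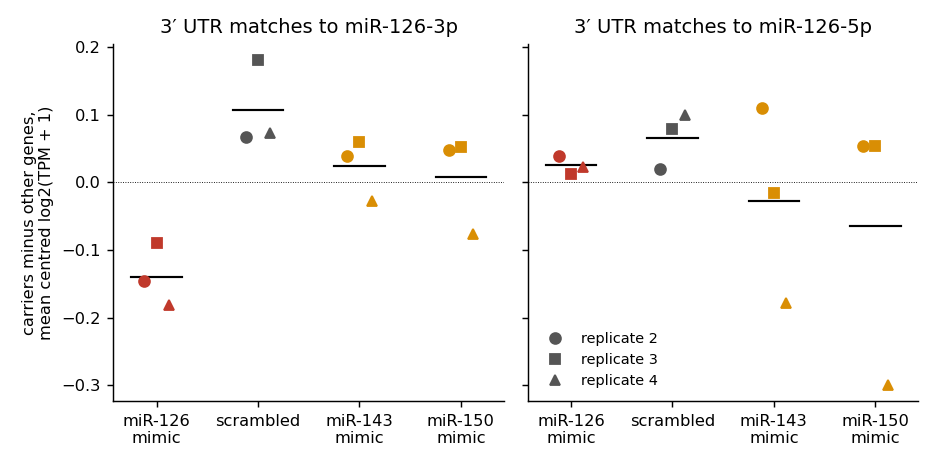
The y axis gives the mean centred log2(TPM + 1) of genes with a 3′ UTR match to bases 2 to 8 minus that of genes without one, for miR-126-3p (left) and miR-126-5p (right), here centred over all 12 libraries. Symbols are single libraries by replicate number and bars are group means. On the left the 3 miR-126 mimic libraries lie below the other 9, while on the right they lie among them.

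Single carriers of the miR-126-3p match were called lower more often than other genes, in small numbers. Of the 166 carriers, 14 fell and 1 rose, or 8.43% lower against 1.87% of all genes with a UTR. With the replicate block 33 fell and 11 rose, 19.9% lower against 5.46%. Of the 37 with the full 7-mer, 3 fell (PMM1 and the copies F8A1 and F8A3) and 1 rose (CENPP), and with the block 9 fell and 4 rose. Of all genes with a UTR 3.67% rose, and with the block 1585 of 12489 did. The rises among carriers did not exceed these shares. The exons of CENPP overlap IPPK and NOL8, its call was kept in 1 of the 6 fits that left out 1 library, and its value is uncertain. The median difference over the 37 was -0.03 and over the 129 with the weaker match alone -0.07, against 0.10 over all genes. Most carriers thus did not pass, and the group's shift was small.

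PMM1, a phosphomannomutase, was the 1 carrier of the full 7-mer that fell and has no near-identical copy among them. It measured 8.42, 7.2 and 7.52 TPM in mimic replicates 2, 3 and 4 and 20.2, 16.5 and 19.3 TPM with scrambled RNA. Its log2 difference was -1.17 (SE 0.20, adjusted p = 0.0081), it passed in all 6 fits that left out 1 library, and it was also lower than with the other mimics (-1.30, adjusted p = 0.0050). F8A1 and F8A3 are near-identical copies whose reads cannot be told apart, and they are reported as uncertain. Among carriers of the weaker match, B4GALT4, a galactosyltransferase, fell by 0.99 on the log2 scale and EFHD2, a calcium-binding protein, by 0.86, and both passed in all 6 such fits. LNPK, a protein of endoplasmic reticulum junctions, measured 12, 8.91 and 9.31 TPM against 24.1, 24.6 and 28.1 TPM, but its call was lost in each of those fits.

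Reported miR-126 targets were a list of 39 genes, 31 of them tested. ADAM9 and GOLPH3 fell and TWF2 and HOXA9 rose, 2 each way against 1.73% and 3.37% of all genes. With the replicate block 10 fell and 4 rose, against 5.11% and 11.8%. The median difference of the 31 was -0.30, against 0.10 for all genes, and 12 lay below all 3 scrambled libraries, where 11.1% of all genes did. Without the 4 libraries numbered 3, 1 of the 31 fell and 0 rose (0.967% and 1.72% of all genes). VCAM1, DLK1, PTPN7, CADM1, RGS16, BCL2, SOX2 and MMP7 did not pass the filter on low values.

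GOLPH3, a Golgi protein that shapes vesicle budding and growth signalling, had the largest difference relative to its standard error among the 31 tested targets. It measured 38.6, 36.5 and 37.1 TPM in the mimic libraries and 83.8, 83.2 and 82.8 TPM in the scrambled ones. The groups were far apart relative to their spread, with a log2 difference of -1.13 (SE 0.13, adjusted p = 7.6e-04). ADAM9, a membrane metalloprotease that sheds growth factors, measured 123, 110 and 112 TPM against 350, 305 and 381 TPM. Its log2 difference was -1.57 (SE 0.23, adjusted p = 0.0033), although its UTR holds no miR-126-3p match by the rules used here and does hold the 5p 7-mer. Both passed in all 6 fits that left out 1 library, and both were also lower than with the other mimics, by 0.92 for GOLPH3 (adjusted p = 0.0026) and 1.22 for ADAM9 (adjusted p = 0.010).

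PIK3R2, the regulatory PI3K subunit p85 beta, measured 10.3, 13.6 and 9.12 TPM in the mimic libraries and 21.2, 22.5 and 22.2 TPM with scrambled RNA. All 3 mimic libraries were lower, yet the difference of -0.95 (SE 0.26) missed the threshold (adjusted p = 0.057; 0.0070 with the replicate block). EGFL7, the host gene, measured 375, 250 and 364 TPM against 645, 505 and 623 TPM, a difference of -0.85 (adjusted p = 0.070; 0.0046 with the block). It was lower than with the other mimics by 1.31 (adjusted p = 0.010). Since miR-126 lies in an intron of this gene and its UTR holds the weaker match shown above, the value concerns the host transcript only.

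SLC7A5, a transporter of large neutral amino acids, measured 17.6, 21.0 and 17.1 TPM against 28.5, 40.9 and 30.9 TPM (adjusted p = 0.10; 0.0070 with the block). CRK, an adaptor of receptor signalling, measured 69.3, 57.3 and 64.8 TPM against 94.8, 83.8 and 102 TPM (adjusted p = 0.087; 0.020 with the block). PTPN9, a tyrosine phosphatase, measured 26.7, 24.8 and 25.8 TPM against 36.5, 37.8 and 40.4 TPM (adjusted p = 0.11; 0.037 with the block). In each of the 3 every mimic library lay below every scrambled one, as in 11.1% of all genes. The call came only with the block, which called 5.11% of all genes lower. ALCAM, a cell adhesion molecule, followed the same pattern at 127, 111 and 124 against 247, 227 and 314 TPM (log2 difference -1.11, adjusted p = 0.056; 0.022 with the block).

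SPRED1, the inhibitor of RAS signalling through which miR-126 is best known to act, did not pass with or without the block. It measured 16.2, 13.5 and 13.9 TPM in the mimic libraries and 19.99, 24.8 and 23.5 TPM in the scrambled ones (log2 difference -0.61, SE 0.39, adjusted p = 0.44; 0.22 with the block). Leaving out the 2 libraries that disfavour long transcripts gave an adjusted p of 0.013. IRS1 overlapped between the groups (6.57, 10.4 and 4.37 against 4.68, 11.8 and 6.07 TPM), as did TSC1 (29.6, 30.7 and 26.2 against 25.1, 31.9 and 25.4 TPM). HOXA9, a homeobox factor, was higher at 20.7, 20.3 and 16.2 against 9.40, 10.1 and 8.80 TPM, and TWF2, an actin-binding protein, at 64.1, 63.9 and 68.1 against 39.5, 39.9 and 36.2 TPM. These 2 differed in the direction opposite to ADAM9 and GOLPH3.

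**Figure D3:**
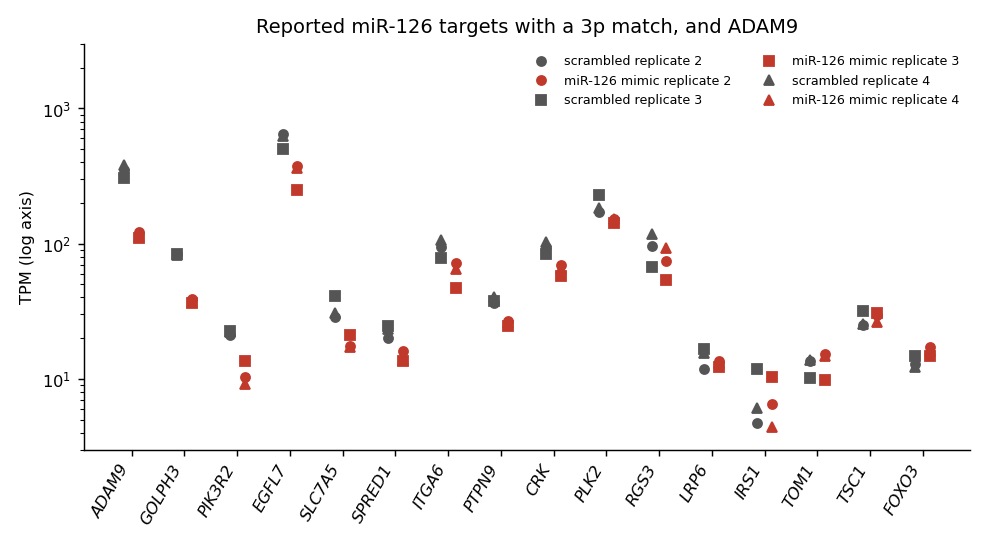
TPM on a log-scaled axis in each scrambled (grey) and miR-126 mimic (red) library for reported targets that hold a 3′ UTR match to miR-126-3p, and for ADAM9, which holds none, ordered from the most negative to the most positive log2 difference. The groups are separate from ADAM9 to PLK2 and overlap from RGS3 to FOXO3.

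Where a gene has several transcripts, those whose exons cover the match could be set beside those that do not. For PIK3R2 the covering transcript measured 6.31 ± 0.178 TPM against 16.1 ± 1.11 TPM with scrambled RNA, and the others 4.71 ± 2.17 against 5.89 ± 1.34 TPM (SD, n = 3 each). For SPRED1 the covering transcript measured 7.82 ± 0.881 against 14.4 ± 0.734 TPM, and the others 6.69 ± 0.595 against 8.30 ± 1.75 TPM. In both genes the gap between the groups was wider in the transcript that carries the match. For EGFL7 both kinds were lower, 273 ± 52.7 against 447 ± 60.4 TPM for those that cover it. The others measured 56.6 ± 16.4 against 144 ± 17.8 TPM, a wider gap relative to level, the reverse of PIK3R2 and SPRED1. The covering transcript whose window is shown above was not lower, at 119 ± 28.0 against 109 ± 18.4 TPM. Another covering transcript measured 149 ± 22.6 against 335 ± 44.4 TPM.

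The same split over all carriers has to be read against other genes, because over all genes too the transcripts that cover the middle of the UTR had, more often than not, a lower difference than the other transcripts of the same gene. Of 104 carriers with at least 1 TPM in both kinds of transcript, the covering kind had the lower difference in 85 (81.7%). For matches to miR-126-5p this held in 909 of 1261 genes (72.1%), and for transcripts that cover the middle base of the UTR, over all genes, in 5341 of 8333 (64.1%). In the carriers of the miR-126-3p match the middle base gave 82.2% as well, so position at the match and position within the UTR could not be told apart. The median difference of the covering transcripts was -0.22 in the carriers and 0.04 over all genes, and that of the other transcripts 0.16 and 0.17. This split was chosen after the data were seen and carries no test here, and kallisto divides reads among similar transcripts by estimation.

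The 15 largest falls and rises were taken by size among genes that passed and moved the same way in all 3 same-numbered pairs. None of the falls holds the miR-126-3p 7-mer, and 5 of the 14 with a UTR hold that of miR-126-5p, which 19.9% of all genes do. The choice fixes their direction and largely their separation from the scrambled libraries, so these are given as values. Of them, 9 falls and 10 rises passed in all 6 fits that left out 1 library. Against the other mimics, 6 of the 15 falls were called lower and 3 of the 15 rises higher (12 and 7 with the block). Of all genes 1.15% were lower and 2.46% higher there (3.58% and 14.8% with the block). Both comparisons share the miR-126 libraries, so these counts are no separate test.

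Collagen handling and matrix breakdown made up several of the falls. MMP14, the membrane-anchored collagenase that activates MMP2 (chr14:22836557-22849027), measured 76.8, 90.3 and 67.6 TPM in mimic replicates 2, 3 and 4 and 304, 311 and 327 TPM in the scrambled libraries (log2 difference -2.00, SE 0.16, adjusted p = 9.95e-05). COLGALT1, which adds galactose to collagen hydroxylysine (chr19:17555594-17583162), measured 45.8, 47.1 and 49.5 TPM against 190, 176 and 207 TPM (-1.98, SE 0.11, adjusted p = 5.73e-06). PLOD2, the lysyl hydroxylase of collagen telopeptides (chr3:146069440-146163653), measured 98.6, 88.1 and 83.3 TPM against 286, 294 and 340 TPM (-1.76, SE 0.22, adjusted p = 0.0013). In all 3 every mimic library lay far below every scrambled one. The metalloprotease ADAM19 fell by 2.00, but its exons overlap CYFIP2 and its value is uncertain.

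With the other mimics as the reference, these genes differed less. COLGALT1 was still lower (-1.19, adjusted p = 1.0e-04), whereas MMP14 (-0.52, adjusted p = 0.072; 0.011 with the block) and PLOD2 (-0.49, adjusted p = 0.16; 0.066 with the block) did not pass. MMP14 measured 75.5, 101.4 and 63.2 TPM with the miR-150 mimic, a range that includes all 3 miR-126 libraries, and 161, 173 and 142 TPM with miR-143. PLOD2 measured 104, 109 and 60.2 TPM with miR-150 and 235, 166 and 156 TPM with miR-143. The miR-150 libraries of these genes thus lay near those of miR-126 and the miR-143 libraries between those and scrambled RNA. PRRX1, a mesenchymal homeobox factor, measured 1.49, 0.901 and 1.10 TPM against 5.91, 5.22 and 7.89 TPM with scrambled RNA, a difference of -1.76 (adjusted p = 0.0039). Against the other mimics its difference was 0.03 (adjusted p = 0.94). The comparison with scrambled RNA and that with the mimics share the 3 miR-126 libraries and are not independent.

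**Figure D4:**
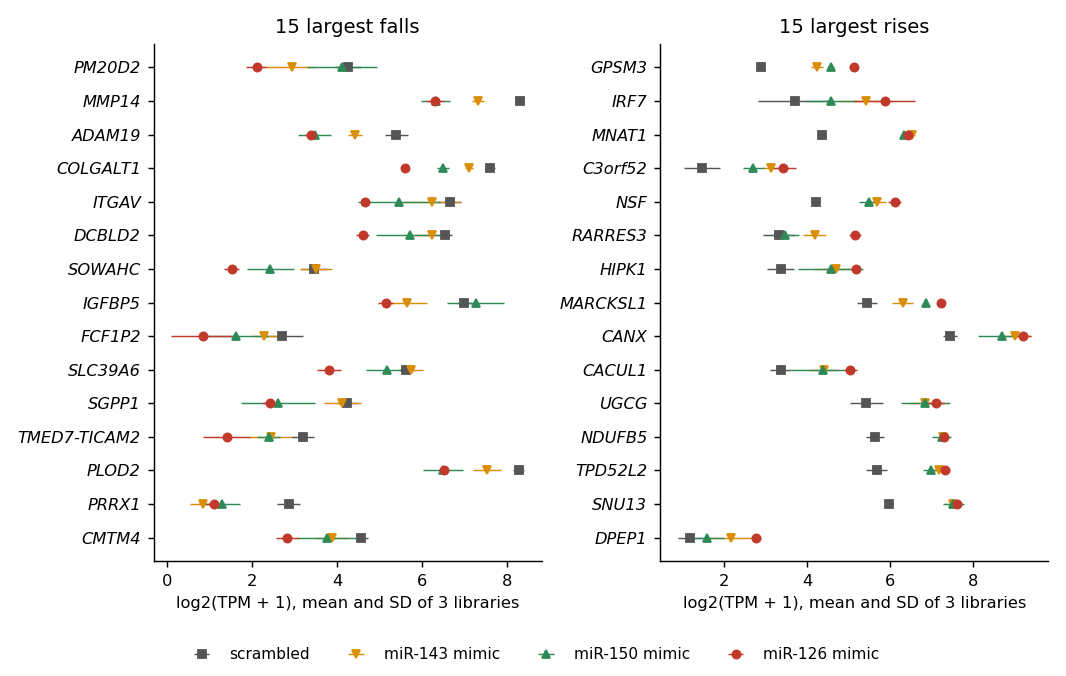
Mean and SD of log2(TPM + 1) over the 3 libraries of each group for the 15 genes with the largest falls (left) and the 15 with the largest rises (right). Red circles (miR-126 mimic) and grey squares (scrambled) are apart throughout, whereas both other mimics (triangles) lie close to the miR-126 mimic in PRRX1, MNAT1, NDUFB5 and SNU13, the miR-150 mimic alone does so in MMP14, ADAM19 and PLOD2, and both lie nearer the scrambled group in SLC39A6.

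Of the lists, 45 tested genes of extracellular matrix and proteases held 7 falls and 1 rise (19 and 2 with the block, against 5.11% and 11.8% of all genes). The falls included MMP14, ADAM19, ADAM9, the fibrillin FBN1, fibronectin FN1 and PLAT, the tissue plasminogen activator, and CCN1, a matrix-bound angiogenic protein, rose. PLAT measured 91.8, 82.7 and 92.1 against 158, 129 and 179 TPM. FN1 measured 274, 210 and 238 TPM against 388, 308 and 359 TPM, and FBN1 71.3, 57.2 and 57.3 against 154, 124 and 142 TPM. In all 3 genes every mimic library lay below every scrambled one, and the calls for FN1 and FBN1 were kept in 1 and 0 of the 6 fits that left out 1 library. The list's median was -0.32 against 0.10 for all genes.

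Markers of fibroblasts and pericytes did not move 1 way. Of 8 tested genes of that list 5 lay above 0, with a median difference of 0.09. Of all genes 8749 of 13750 lay above 0, with a median of 0.10, so the list was near all genes. With the block 1 of the 8 rose and 2 fell, against 11.8% and 5.11% of all genes. COL1A2 measured 23.3, 3.48 and 28.6 TPM against 64.9, 8.65 and 80.1 TPM (adjusted p = 0.53; 0.0011 with the block). ACTA2 and RGS5 were higher in all 3 pairs, as 41.2% of all genes were. ACTA2 measured 10.4, 28.6 and 7.41 against 6.46, 25.1 and 2.38 TPM, and RGS5 10.9, 9.01 and 12.02 against 9.14, 7.44 and 11.3 TPM. Their part in the matrix result was not tested. Among 18 enzymes that modify collagen 3 fell and 0 rose, against 1.73% and 3.37% of all genes (5 and 1 with the block, against 5.11% and 11.8%). The 3 were COLGALT1, PLOD2 and LOXL1, a lysyl oxidase at 8.62, 12.8 and 9.11 against 20.02, 16.0 and 20.3 TPM. The list's median was -0.05, against 0.10 for all genes. Of the 18, 9 were lower in all 3 pairs (20.7% of all genes) and 7 lay below every scrambled library (11.1% of all genes).

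Integrin and adhesion-site genes, 32 tested, held 5 falls and 0 rises, where 1.73% and 3.37% of all genes were called (8 and 1 with the block, where 5.11% and 11.8% were). ITGAV, the alpha V integrin that binds vitronectin, measured 26.5, 23.7 and 22.7 TPM against 88.8, 89.4 and 122 TPM (log2 difference -1.98, SE 0.42, adjusted p = 0.021), and its call was kept in 1 of the 6 fits that left out 1 library. ITGB8, a partner of alpha V, fell by 1.37 from a low level, ITGA3 by 0.54 and the GTPase RHOA by 0.49. ITGB1, the most widely used beta subunit, measured 721, 598 and 710 against 806, 828 and 899 TPM and did not pass (adjusted p = 0.31). ILK, the integrin-linked kinase, measured 90.6, 85.0 and 83.5 TPM against 223, 220 and 207 TPM, and differed by -1.32 from scrambled RNA (adjusted p = 4.5e-05) and by -1.31 from the other mimics (adjusted p = 4.1e-05). Its exons overlap TAF10, so the value is uncertain.

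TGF-beta and mesenchymal genes held 6 falls and 1 rise among 34 tested, against 1.73% and 3.37% of all genes. With the block there were 12 falls and 4 rises, against 5.11% and 11.8%, so the rises were at the share of all genes. TGFBI, an extracellular protein induced by TGF-beta, measured 251, 271 and 253 TPM against 502, 532 and 517 TPM (log2 difference -0.998, SE 0.10, adjusted p = 2.7e-04). SNAI1, a repressor of epithelial genes, measured 8.02, 6.86 and 7.31 against 17, 14.1 and 17.4 TPM, and VIM, the intermediate filament vimentin, 1608, 1781 and 1712 against 2352, 2719 and 2383 TPM. The receptor TGFBR1 fell from 10.9, 19.3 and 15.1 to 5.49, 6.03 and 4.64 TPM, with its call lost in all 6 fits that left out 1 library. Of the latent TGF-beta binding proteins, LTBP2 fell (-1.43) and LTBP1 rose (0.82), so the family did not move as 1 group. Against the other mimics SNAI1 (-0.70, adjusted p = 0.025) and VIM (-0.41, adjusted p = 0.031) were lower, and TGFBI was not called (-0.20, adjusted p = 0.20).

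Among the rises MNAT1, which assembles the CDK-activating kinase (chr14:60734742-60969953), measured 87.5, 83.6 and 85.9 TPM with the mimic and 20.7, 18.3 and 19.8 TPM with scrambled RNA (log2 difference 2.07, SE 0.10, adjusted p = 2.45e-06). Against the other mimics the difference was 0.01 (SE 0.09, adjusted p = 0.94). NSF, the ATPase that takes apart SNARE complexes (chr17:46590669-46757464), measured 73.8, 60.1 and 71.3 TPM against 18.2, 18.0 and 16.6 TPM (1.90, SE 0.15, adjusted p = 8.7e-05). CANX, the chaperone calnexin, measured 535, 678 and 585 TPM against 155, 197 and 174 TPM (1.77, SE 0.26, adjusted p = 0.0038). Against the other mimics neither passed without the block. NSF differed by 0.53 (adjusted p = 0.054, or 0.0088 with the block) and CANX by 0.36 (adjusted p = 0.36, or 0.16 with the block). GPSM3 rose by 2.24, yet its exons overlap NOTCH4, which also rose, and neither value is certain. Of 22 vesicle fusion genes 3 rose and 0 fell, against 3.37% and 1.73% of all genes (8 and 0 with the block, against 11.8% and 5.11%). Besides NSF these were NAPA, the adaptor of NSF, at 238, 277 and 222 against 173, 186 and 162 TPM and the SNARE protein STX6 at 29.4, 30.3 and 28.1 against 14.4, 18.2 and 15.2 TPM.

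10 of the 15 largest rises, MNAT1, NSF, CANX and GPSM3 among them, have GGTTGTG, a further 7-mer, within their 3′ UTR, and 0 of the falls do. It belongs to neither strand of miR-126. An earlier scan of these same libraries had singled it out as the 7-mer whose carriers were lowest in the scrambled libraries, so the counts restate that choice and are given with no test. It was in 1280 genes (10.2% of those with a UTR), in 125 of the 458 higher genes (27.3%) and in 14 of the 233 lower genes (6.01%). Carriers were called higher in 9.77% of cases, against 3.67% of all genes with a UTR. Whether the scrambled RNA pairs with it was not tested, since the sequence of that RNA was not used here.

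Interferon-stimulated genes, the antiviral set switched on by interferon, varied with the replicate number as well as with the group. Their mean level over 40 tested members was 3.48, 5.33 and 3.37 (log2(TPM + 1)) in scrambled replicates 2, 3 and 4 and 5.46, 7.37 and 5.02 with the miR-126 mimic. Replicate 3 was highest in both groups, and each mimic library lay above the scrambled library of its number. Without the block 1 member rose (BATF2) and 0 fell, with 15 of 40 above all scrambled libraries, against 23.1% of all genes. With the block 39 rose, against 11.8% of all genes, and without the 4 libraries numbered 3, and with no block, 22 rose, against 1.72%. XAF1 was the 1 member that did not pass with the block and was not higher in all 3 pairs, as 41.2% of all genes were. The median difference was 1.78.

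IFIT1, which binds foreign RNA caps, measured 62.7, 374 and 40.6 TPM with the mimic and 3.59, 41.0 and 3.20 TPM with scrambled RNA. The scrambled replicate 3 library thus exceeded the mimic replicate 4 library, and the difference of 3.42 did not pass (SE 1.28, adjusted p = 0.16; 5.8e-06 with the block). Without the libraries numbered 3 it was 3.55 (adjusted p = 0.0032). ISG15, a ubiquitin-like modifier, measured 259, 1375 and 201 TPM against 41.2, 245 and 26.3 TPM, and MX1, an antiviral GTPase, 155, 851 and 93.6 against 6.81, 142 and 6.82 TPM. IFI44L measured 29.8, 193 and 18.6 TPM against 0.552, 28.0 and 0.520 TPM. The smallest gain in this list's plot was that of IFITM2, at 598, 735 and 555 against 421, 519 and 364 TPM (0.54, adjusted p = 0.056; 0.0037 with the block).

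**Figure D5:**
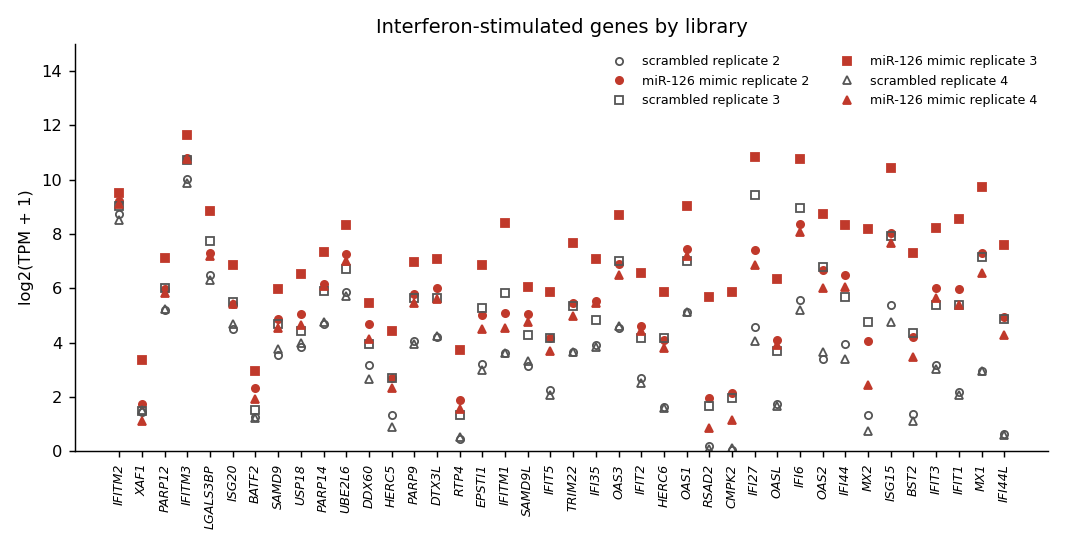
log2(TPM + 1) of the 40 tested interferon-stimulated genes, ordered by difference, in the scrambled (open grey) and miR-126 mimic (filled red) libraries, with the replicate number given by the symbol. Squares, replicate 3, are the highest red symbol in all 40 genes and the highest grey one in 39, and within a number the filled symbol lies above the open one in 39 of 40 genes.

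The sensors and relays of this pathway held 3 rises and 0 falls of 29, against 3.37% and 1.73% of all genes (12 and 0 with the block, against 11.8% and 5.11%). Their mean level was 4.30, 4.76 and 4.27 (log2(TPM + 1)) in the scrambled libraries and 5.03, 5.43 and 4.8 in the mimic libraries, again highest in replicate 3 of both groups. IRF7, the factor that amplifies interferon production, measured 45.9, 104 and 39.5 TPM against 9.49, 25.3 and 7.07 TPM (log2 difference 2.16, SE 0.51, adjusted p = 0.035; call kept in 1 of the 6 fits that left out 1 library). IRF1 measured 60.7, 79.9 and 57 against 30.7, 44.8 and 27.1 TPM, and TMEM173, the DNA-sensing adaptor STING, 117, 136 and 117 against 86.0, 87.4 and 82.2 TPM. The interferon list also varied among the other mimics, at 4.56, 6.52 and 4.23 with miR-143 and 3.71, 5.63 and 3.32 with miR-150. Compared with their mean, IFIT1 was higher by 1.81 with the miR-126 mimic (adjusted p = 0.35; 1.2e-04 with the block).

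Class I antigen presentation genes, which interferon also induces, held 5 rises and 0 falls of 20, against 3.37% and 1.73% of all genes (15 and 0 with the block, against 11.8% and 5.11%). B2M, the light chain of class I molecules, measured 4568, 6509 and 4471 TPM against 2013, 3126 and 1886 TPM (log2 difference 1.16, SE 0.23, adjusted p = 0.015). HLA-E measured 349, 379 and 337 against 268, 239 and 257 TPM. HLA genes are similar to each other in sequence and their values are less certain for that reason. Against the other mimics, B2M was called only with the block (0.21, adjusted p = 0.55; 0.028 with the block).

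The promoters of IFIT1 and B2M are shown because their genes moved together across the libraries. Factors of the interferon pathway are known to bind an element with a core of GAAA, any 2 bases and GAAA again, searched here on both strands, overlapping matches included, in RefSeq windows of 250 bases before to 50 bases after the gene start (GRCh38.p14), with the matches in capitals.
IFIT1 chr10:89392373-89392672 (+): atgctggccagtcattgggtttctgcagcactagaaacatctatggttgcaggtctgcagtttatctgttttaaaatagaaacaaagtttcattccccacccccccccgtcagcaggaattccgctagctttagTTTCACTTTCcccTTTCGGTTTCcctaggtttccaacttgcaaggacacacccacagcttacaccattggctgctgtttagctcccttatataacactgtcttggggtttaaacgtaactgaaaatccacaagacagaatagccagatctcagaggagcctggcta
B2M chr15:44711267-44711566 (+): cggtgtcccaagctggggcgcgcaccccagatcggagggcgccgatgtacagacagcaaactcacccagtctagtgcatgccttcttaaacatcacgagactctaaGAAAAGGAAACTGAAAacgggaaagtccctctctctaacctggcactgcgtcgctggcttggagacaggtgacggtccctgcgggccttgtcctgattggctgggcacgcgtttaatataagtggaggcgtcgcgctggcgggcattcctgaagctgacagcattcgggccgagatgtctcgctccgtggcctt
Of the 40 interferon-stimulated genes 33 had a window and 23 of these (69.7%) held the element, against 996 of 27305 windows of all genes (3.65%). In the class I list 9 of 18 did. Both lists hold genes known to respond to interferon, so these shares describe the lists and not these libraries. The window of OAS1, another gene that interferon induces, held 0 matches. A match is a description of the letters, not of binding.

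Endothelial identity genes, whose markers were given above, held 1 rise and 2 falls of 32, against 3.37% and 1.73% of all genes (3 and 9 with the block, against 11.8% and 5.11%). The rises were near the share of all genes. S1PR1, the receptor for sphingosine-1-phosphate that steadies junctions, measured 130, 123 and 150 TPM against 45.8, 56.0 and 49.1 TPM (log2 difference 1.40, SE 0.17, adjusted p = 0.0013), and its difference from the other mimics was 0.10 (adjusted p = 0.71). NOS3, the endothelial nitric oxide synthase, measured 20.1, 19.8 and 16.9 against 30.8, 28.96 and 29.05 TPM and was lower against the mimics too (-0.59, adjusted p = 0.017). Its exons overlap ATG9B, and those of JAM3, a junctional protein that fell by 0.99, overlap NCAPD3. CLDN5, the claudin of the blood-brain barrier, measured 15.8, 8.15 and 20.5 TPM against 6.03, 3.88 and 6.66 TPM (adjusted p = 0.17; 0.0030 with the block).

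Of 17 genes of VEGF and angiopoietin signalling 2 rose and 0 fell, against 3.37% and 1.73% of all genes. With the block 3 rose and 1 fell, near the 11.8% and 5.11% of all genes. APLN, the peptide apelin of sprouting vessels, measured 256, 251 and 309 TPM against 96.2, 127 and 121 TPM (log2 difference 1.24, SE 0.13, adjusted p = 3.9e-04), and was higher than with the other mimics (0.49, adjusted p = 0.037). ESM1, a proteoglycan of tip cells, measured 50.6, 70.6 and 58.1 against 25.5, 35.1 and 25.7 TPM. ANGPT2, the antagonist of the TIE2 receptor, measured 8.08, 21.0 and 10.4 against 1.44, 6.95 and 1.96 TPM and passed with the block (adjusted p = 0.084; 3.5e-04). KDR, the main VEGF receptor, overlapped between the groups, at 73.4, 46.7 and 65.7 against 65.6, 43.6 and 71.9 TPM.

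In the pathways in which SPRED1 and PIK3R2 act, the calls without the block were near the share of all genes. Of 30 ERK pathway genes and 28 of the PI3K and AKT pathway, 0 rose and 0 fell, against 3.37% and 1.73% of all genes. With the block 2 rose and 1 fell in the ERK list and 0 and 2 in the PI3K list, against 11.8% and 5.11%. Without the 2 libraries that disfavour long transcripts, 3 rose and 3 fell in the ERK list and 1 and 2 in the PI3K list, against 8.81% and 4.54%. Of the ERK genes DUSP6, a feedback phosphatase, lay 0.58 higher (adjusted p = 0.19) and NF1, a RAS inhibitor, 0.75 lower (adjusted p = 0.37). In the PI3K list AKT2 lay 0.65 lower (adjusted p = 0.17; 0.041 with the block). Of 17 immediate early genes, which respond to ERK signalling among others, 4 rose and 1 fell, against 3.37% and 1.73% of all genes (7 and 3 with the block, against 11.8% and 5.11%). FOS measured 7.21, 6.24 and 5.97 against 2.22, 1.99 and 1.09 TPM, FOSB 3.34, 2.95 and 3.56 against 0.815, 0.873 and 0.457 TPM, and KLF4, a flow-responsive factor, 13.4, 19.0 and 15.5 against 25.6, 23.6 and 29.6 TPM.

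In the lists on cell division and p53 the calls without the block were near the 3.37% higher and 1.73% lower of all genes. Of 26 p53 targets 1 rose and 0 fell, of 30 S phase genes 0 and 1, and of 30 G2 and M phase genes 0 and 0. With the block 12 p53 targets rose and 1 fell, 10 S phase genes rose and 1 fell, and 1 G2 and M phase gene rose and 1 fell, against 11.8% and 5.11% of all genes. DDB2, a DNA repair gene among the p53 targets, measured 61.7, 57.1 and 58.4 against 36.5, 40.0 and 32.0 TPM. FEN1, a flap nuclease of replication, measured 102, 98.2 and 112 against 175, 154 and 176 TPM, and its exons overlap FADS2 and TMEM258. PDPN, the lymphatic marker podoplanin, measured 66.0, 64.2 and 60.5 against 132, 124 and 130 TPM (log2 difference -1.01, adjusted p = 7.7e-04), while PROX1, the factor that defines lymphatic endothelium, did not exceed 1.76 TPM in any of the 6 libraries. LYVE1, another lymphatic marker, was higher in all 3 pairs, as 41.2% of all genes were, at 11.2, 15.9 and 15.7 against 7.59, 10.7 and 6.99 TPM. Of the 6 tested lymphatic markers 4 lay above 0, with a median of 0.07. Of all genes 8749 of 13750 lay above 0, with a median of 0.10. XBP1, the stress factor of the endoplasmic reticulum, measured 53.5, 50.0 and 54.9 against 89.0, 81.5 and 96.0 TPM. Among 13 mitochondrially encoded mRNAs 0 passed with or without the block.

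Single members of other lists passed. Of 30 glycolysis and hypoxia genes 2 rose and 0 fell, near the 3.37% and 1.73% of all genes (7 and 3 with the block, against 11.8% and 5.11%). PFKL, a phosphofructokinase, measured 93.0, 90.01 and 93.9 against 49.4, 45.9 and 45.8 TPM (log2 difference 0.96, SE 0.11, adjusted p = 7.4e-04), and PFKFB4, which makes its activator, 7.18, 4.91 and 5.43 against 2.20, 2.07 and 1.29 TPM. Neither was called against the other mimics (0.00 and 0.08, adjusted p = 0.997 and 0.83). Of 18 WNT and Norrin genes 0 rose and 1 fell, near the 3.37% and 1.73% of all genes. With the block 1 rose and 3 fell, against 11.8% and 5.11%. The 1 call without the block was CTNNB1, the adhesion and WNT signalling protein beta-catenin. It measured 200.001, 158 and 196 TPM against 365, 271 and 407 TPM, and was lower than both scrambled RNA (-0.90, adjusted p = 0.031) and the other mimics (-0.91, adjusted p = 0.023), with the first call kept in 1 of the 6 fits that left out 1 library. Of 13 genes of leukocyte adhesion and chemokines 1 rose and 1 fell, against 3.37% and 1.73% of all genes. With the block 5 rose and 2 fell, against 11.8% and 5.11%. CCL2, which attracts monocytes, fell from 51.9, 61.7 and 50.6 to 31.8, 39.3 and 26.5 TPM, and CXCL5 rose from levels under 0.5 TPM.

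Against the mean of the miR-143 and miR-150 mimics, 338 genes were higher and 158 lower with the miR-126 mimic, 2.46% and 1.15% of those tested and 3.61% in both directions. The block raised these counts to 2035 and 492 (14.8% and 3.58%). Centring on the median gene gave 150 higher and 386 lower, so here too the split between higher and lower genes depended on the scaling. Leaving out miR-126 mimic replicate 4 left 7 higher and 30 lower, and leaving out its replicate 2 left 9 and 33. The reference includes both libraries that disfavour long transcripts, without which 513 were higher and 348 lower.

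CD9, SLC39A6 and AES were among the genes lower than both references, and APOE and PDK4 among those higher than both, ranked after their values were seen by the smaller of the 2 differences. CD9, a tetraspanin that organises integrins in the membrane, measured 343, 448 and 346 TPM with the miR-126 mimic and 999, 1252 and 1062 TPM with scrambled RNA, differing by -1.54 from scrambled RNA (SE 0.14, adjusted p = 1.6e-04) and by -1.70 from the other mimics (adjusted p = 5.9e-05). SLC39A6, a zinc transporter, measured 10.9, 16.5 and 12.3 against 44.6, 55.5 and 45.3 TPM and differed by -1.81 and -1.64. AES, a corepressor, measured 117, 145 and 105 against 335, 359 and 335 TPM and differed by -1.49 and -1.24. All 3 passed against scrambled RNA in each of the 6 fits that left out 1 library, and none holds the miR-126-3p 7-mer.

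APOE, the lipid carrier apolipoprotein E, measured 36.7, 29.7 and 38.7 TPM with the miR-126 mimic and 13.0, 12.3 and 9.03 TPM with scrambled RNA, a difference of 1.54 (SE 0.18, adjusted p = 0.0012), and of 1.36 against the other mimics (adjusted p = 0.0021). PDK4, a kinase that restrains pyruvate oxidation, measured 39.2, 20.3 and 35.4 against 10.8, 9.0 and 10.3 TPM and differed by 1.51 and 1.28. RARRES3, a phospholipase that interferon can also induce, measured 33.3, 38.7 and 32.2 against 8.90, 11.9 and 6.65 TPM and differed by 1.85 and 1.33. RCAN1, an inhibitor of calcineurin, measured 39.6, 42.0 and 40.1 against 15.8, 20.4 and 14.04 TPM and differed by 1.24 and 1.12. With the miR-143 mimic RCAN1 measured 30.7, 39.3 and 31.0 TPM, near the miR-126 values, and with miR-150 8.75, 13.3 and 7.67 TPM. Its rise was thus shared with miR-143. APOE, PDK4, RARRES3 and RCAN1 passed in each of the fits that left out 1 library. COL13A1, a transmembrane collagen, lay between the references, 0.58 below scrambled RNA (adjusted p = 0.040) and 0.55 above the other mimics (adjusted p = 0.039).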

How the data were processed

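Reads were assigned to transcripts with kallisto per the submitters' processing notes, which also name FastQC, sleuth and the build GRCh38 (hg38) without versions. The annotation and filters are not given in the sources read for this work. The authors deposited TPM for 187626 transcripts, each column summing to 1000000, so depth is lost and the share of any transcript depends on that of the others. TPM were summed per gene symbol (36433 symbols, 171 transcripts without a gene left out; 677 tested symbols cover several Ensembl genes), and a gene was tested where 3 or more libraries reached 1 TPM. Reads of overlapping genes cannot be separated where the strand used in counting is not known.

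All 12 libraries entered a limma 3.58.1 model (R 4.3.3) of log2(TPM + 1) on group alone, which understates the change of low genes. Tests were two-sided with a mean-variance trend, with Benjamini-Hochberg adjustment over all 13750 genes. The fit was tested on simulated data. Residuals of same-numbered libraries correlated with 0.289, 0.634 and 0.401 (numbers 2, 3 and 4) between miR-126 mimic and scrambled RNA, with 0.321, 0.664 and 0.365 against miR-143 and with 0.291, 0.547 and 0.284 against miR-150. All exceed 0.1, and the numbers were taken to pair the libraries, although no label says what they mark. Residuals were centred within each group, so a deviation shared by the libraries numbered 3 alone would also make the other numbers correlate. Correlations between differently numbered libraries were not computed, and the pairing of numbers 2 and 4 is therefore an assumption. Block values rest on it and are given where they change a call.

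UTRs and overlaps came from GENCODE 29, in which 169900 transcripts (90.6%) were found, and the longest UTR among the protein-coding transcripts stood for a gene. Named genes were the 15 largest falls and rises that moved alike in all 3 pairs, list members past the threshold, all reported targets, members with the largest change in 9 lists and the lowest seed carriers, and other genes were named after their values were seen. Some genes that the rule names are not reported here. The members and gene lists were chosen with earlier results of these data known. Alternatives covered the pseudocount, the filter, scaling, libraries left out and the block.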

Additional observations from a re-analysis of the deposited data

How the results depend on the processing

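The counts of genes depended on the fit, and 464 higher and 238 lower genes against scrambled RNA are the values reported. With the replicate block, which assumes a pairing by number, they were 1629 and 702. With only the 6 libraries they were 1119 and 554, and with the block as well 2999 and 1451. Without the 2 libraries that disfavour long transcripts they were 1211 and 624. Without the 4 libraries numbered 3, an alternative added after seeing the data, they were 236 and 133. Lower genes numbered 547 both when centred on the median gene and after quantile normalization, and 752 after removal of the length trend. Leaving out 1 library gave 129 to 305 higher and 85 to 167 lower. Against the other mimics, 338 higher and 158 lower became 2035 and 492 with the replicate block, 150 and 386 when centred on the median gene, 513 and 348 without the 2 libraries, 78 and 57 without those numbered 3, and lower genes 352 with quantile normalization and 588 after that removal; leaving out 1 library gave 7 to 185 and 30 to 122. Fits with fewer libraries called more genes in some cases and fewer in others, and the causes were not tested.

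The difference of miR-126-3p carriers kept its sign under all alternatives, and leaving out 1 library gave -0.270 to -0.209. It had a permutation p under the threshold only against all 9 other libraries, which allow a smaller p, at -0.186 (p = 0.0045), at -0.205 with UTR length and base composition removed (p = 0.0045) and at -0.183 with the weaker match included (p = 0.0091), the last 2 added after seeing the data. The splits against all 9 treat libraries of different treatments and replicate numbers as exchangeable. With the replicate block the miR-126-3p difference was -0.246 and its permutation p 0.25, the smallest 3 pairs allow. The miR-126-5p difference reversed to 0.0027 with UTR features removed (exact permutation p = 0.6), to 0.034 against all 9 (0.85), to 0.0071 with both (0.482) and to 0.030 against all 9 with the weaker match (0.859). Of 95 named genes that passed, none reversed in any alternative. All 95 still passed with the block and 82 when centred on the median gene, 70 of them without the filter on low values, and 43 to 73 when 1 library was left out.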
